A study of Mus musculus with 16 samples.

Results

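The 7 class III and IV POU genes of the mouse, Pou3f1, Pou3f2, Pou3f3, Pou3f4, Pou4f1, Pou4f2 and Pou4f3, were followed through the ChIP-seq peak lists of Jarid2, of Jarid2 dimethylated at lysine K116 (Jarid2-K116me2, shortened to K116me2 for its peaks) and of H3K27me3. A listed peak was assigned to a gene when it overlapped the gene or lay within 5 kb of it in the GENCODE annotation of the mm9 build (NCBIM37). By this rule the genes held 13 of the 4992 Jarid2 peaks and 16 of the 4502 K116me2 peaks, and each of the 7 genes, out of 22350 protein-coding genes on chromosomes 1 to 19 and X, had at least 1 peak of both antibodies.

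The 16 samples of the series came from mouse ESC grown in serum with LIF and from EBs made from them. The EBs were started in hanging drops without LIF, moved to low-adherence plates and taken at 8 days of differentiation. Jarid2 and Jarid2-K116me2 were precipitated from E14 ESC, which carry their own Jarid2, with 1 sample per antibody, so their values have no replicate error. H3K27me3 was precipitated from 3 lines in both states with 2 independent biological samples each, 12 in all: Jarid2 -/- ESC (KO), Jarid2 -/- ESC rescued with a Jarid2 BAC (WT), and Jarid2 -/- ESC rescued with a BAC carrying Jarid2 K116A (K116A). All 3 lines thus share the deletion of the endogenous gene, and WT stands for a transgenic rescue rather than for an unmodified line. In K116A the lysine whose methylation the Jarid2-K116me2 antibody reads is replaced by alanine. The remaining 2 samples are inputs without values here. No RNA was measured, so nothing below speaks of the expression of these genes, and the labelled cell types could not be checked against expressed markers.

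In mm9 the genes lie at chr4:124334896-124337899 on the + strand (Pou3f1, ENSMUSG00000078236.3), chr4:22413791-22415480 on the − strand (Pou3f2, ENSMUSG00000052621.2), chr1:42753991-42757052 on the + strand (Pou3f3, ENSMUSG00000045515.2) and chrX:108009729-108010910 on the + strand (Pou3f4, ENSMUSG00000056854.3). The class IV genes lie at chr14:104862737-104867216 on the − strand (Pou4f1, ENSMUSG00000048349.6), chr8:80956908-80960551 on the − strand (Pou4f2, ENSMUSG00000031688.1) and chr18:42554251-42555747 on the + strand (Pou4f3, ENSMUSG00000024497.2). No annotated gene of another name lay within 5 kb of any of them. The annotation held 1 other record named Pou3f1 on the same chromosome, whose distance was not measured.

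POU factors bind DNA through a bipartite domain made of a POU-specific part and a homeodomain. Class III members (also called Oct6, Brn2, Brn1 and Brn4) act in neural progenitors, cortical neurons, Schwann cells and the inner ear, and class IV members (Brn3a, Brn3b and Brn3c) act in sensory neurons, retinal ganglion cells and hair cells. In ESC such lineage regulators are typical targets of PRC2, the complex that trimethylates H3K27 and that Jarid2 accompanies on chromatin, usually at CpG-rich promoters. PRC2 also methylates Jarid2 itself at K116.

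The DNA just upstream of the start of 4 of the genes is shown because these 4 carry the contrasts described below: Pou3f2 had the longest Jarid2 domain, Pou3f4 had Jarid2 peaks without a listed H3K27me3 peak, Pou4f2 was the gene called higher in EBs, and Pou3f1 had a shorter H3K27me3 domain in K116A EBs. Each run is 250 bases of the gene's own strand, 5′ to 3′, read from the NCBIM37 genome, with CpG dinucleotides in capitals. The start is the RefSeq start (promoter table of build GRCm38.p6, placed by an exact match that was found at 1 place for each of the 5 members in that table), except for Pou3f1, where the annotated 5′ end was used. All 250 bases lay within a peak of both antibodies at each of the 4 genes.
Pou3f1, chr4:124334646-124334895, + strand: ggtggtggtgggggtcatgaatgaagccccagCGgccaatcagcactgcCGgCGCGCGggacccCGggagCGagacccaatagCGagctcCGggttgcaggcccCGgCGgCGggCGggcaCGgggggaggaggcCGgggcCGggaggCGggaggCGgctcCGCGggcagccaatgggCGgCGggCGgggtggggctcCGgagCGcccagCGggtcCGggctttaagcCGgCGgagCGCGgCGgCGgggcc
Pou3f2, chr4:22415514-22415763, − strand: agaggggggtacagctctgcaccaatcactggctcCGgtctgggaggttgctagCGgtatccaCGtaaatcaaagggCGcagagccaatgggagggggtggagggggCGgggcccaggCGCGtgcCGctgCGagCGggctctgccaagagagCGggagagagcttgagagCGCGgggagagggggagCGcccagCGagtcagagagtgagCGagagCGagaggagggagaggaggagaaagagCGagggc
Pou3f4, chrX:108009468-108009717, + strand: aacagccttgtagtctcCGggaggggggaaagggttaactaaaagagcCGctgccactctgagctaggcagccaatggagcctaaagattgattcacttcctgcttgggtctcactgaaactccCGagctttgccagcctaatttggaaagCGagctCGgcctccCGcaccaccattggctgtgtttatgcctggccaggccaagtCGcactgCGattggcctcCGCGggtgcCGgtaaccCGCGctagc
Pou4f2, chr8:80960547-80960796, − strand: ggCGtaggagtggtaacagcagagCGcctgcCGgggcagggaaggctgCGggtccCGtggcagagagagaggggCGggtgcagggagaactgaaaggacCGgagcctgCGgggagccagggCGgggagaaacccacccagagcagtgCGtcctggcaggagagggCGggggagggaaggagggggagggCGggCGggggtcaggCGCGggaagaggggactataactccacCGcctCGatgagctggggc
These stretches held 33 CpGs at Pou3f1, 18 at Pou3f2, 13 at Pou3f4 and 17 at Pou4f2, with a GC content of 79.2%, 66.8%, 58.0% and 70.8%. Pou3f1 was therefore the richest in CpG of the 4 and Pou3f4 the poorest.

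Over 300 bases centred on the annotated 5′ end, Pou3f1 and Pou3f3 each had 51 CpGs, more than 98.7% of protein-coding genes, and Pou4f1 had 48, more than 97.7%. Pou3f2 had 24, Pou4f3 had 21, and Pou3f4 and Pou4f2 had 18 each, against a median of 15 over all genes. The members thus fell into 3 genes with very CpG-rich starts and 4 nearer the middle of all genes. The annotated 5′ end need not be the transcription start: the RefSeq start lay at −1378 bp from it at Pou3f3, and between −33 and 5 bp at Pou3f2, Pou3f4, Pou4f1 and Pou4f2. On both strands, neither the octamer ATGCAAAT, the classical site of POU factors, nor the homeodomain site TAATTA occurred in any of the 7 windows, which says only that these letters are not there. They occurred in 1.35% and 3.43% of the windows of all 22350 genes. On both strands CCGCCG occurred at Pou3f1, Pou3f3 and Pou4f1, 3 of 7, against 28.8% of all genes. Matches were counted without overlap, and none of the 3 motifs contains another.

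The first comparison set total Jarid2 beside K116me2 in E14 ESC, to ask where the methylated form is found among the sites of the protein. Peaks of both antibodies lay at 7 of 7 POU genes, against 15.8% of protein-coding genes (18.1% for Jarid2 and 16.0% for K116me2). In each gene 1 peak of each antibody covered the annotated 5′ end. Of the 13 Jarid2 peaks, 11 overlapped a K116me2 peak by at least 1 bp, against 79.1% of all Jarid2 peaks, and the 16 K116me2 peaks each overlapped a Jarid2 peak, against 98.7% of all. The 2 Jarid2 peaks without a K116me2 partner were flanking ones: 811 bp at 7690 to 8500 bp from the 5′ end of Pou3f3, and 1269 bp at −4549 to −3281 bp from that of Pou4f1. Their scores, 79.5 and 221.02, were far below those of the peaks over the 5′ ends of these genes. The score is the p-value MACS gave to a peak on a negative log scale, so that a higher score is a smaller p. It depends on depth and piles up at 3100, a value held or passed by 15.1% of the peaks for Jarid2 and 21.0% for K116me2.

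Top scores reached 3100 for both antibodies at Pou3f1, Pou3f2, Pou3f3, Pou4f2 and Pou4f3, 5 of 7 genes, against 21.8% of the 3536 genes with both antibodies. Scores at this ceiling do not rank these 5 genes. Pou4f1 scored 2418 for Jarid2 and 2379.23 for K116me2, and Pou3f4 scored 558.66 and 666.92. Over genes with a peak, the median top score was 745.51 for Jarid2 and 1030.48 for K116me2. Pou3f4 alone of the 7 lay below both medians.

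The domains differed in length as well as score. Summed peak widths at Pou3f2 (Brn2, a regulator of neural progenitors and of neuronal reprogramming) were 23512 bp for Jarid2 and 15124 bp for K116me2, the longest of the 7. At Pou4f1 (Brn3a, of dorsal root and trigeminal ganglia) they were 15323 and 9662 bp, and at Pou3f3 (Brn1, of the cortex and kidney) 13701 and 9262 bp. Pou4f3 (Brn3c, of inner ear hair cells) had 9365 and 8690 bp, and Pou4f2 (Brn3b, of retinal ganglion cells) had 8199 and 6282 bp. Pou3f1 (Oct6, of epiblast and Schwann cells) had 6149 and 5140 bp, and Pou3f4 (Brn4, of the inner ear and neural tube) only 3040 and 1729 bp. The median over the 7 genes was 9365 bp for Jarid2 and 8690 bp for K116me2, against 2380 and 2077 bp over all genes with a peak. Both summed widths were at least 5 kb at 6 of 7 members, against 13.7% of genes with both antibodies. The width for Jarid2 exceeded that for K116me2 at 7 of 7 genes, as at 93.2% of genes with both antibodies. The ratio of the widths ran from 1.08 at Pou4f3 to 1.76 at Pou3f4, with a median of 1.48 against 1.24 over all such genes. At Pou3f2 the ratio of 1.55 fell to 1.21 when a K116me2 peak of 4338 bp just outside the window, 5139 bp from the gene, was added, and the median over the members then was 1.31.

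**Figure D1:**
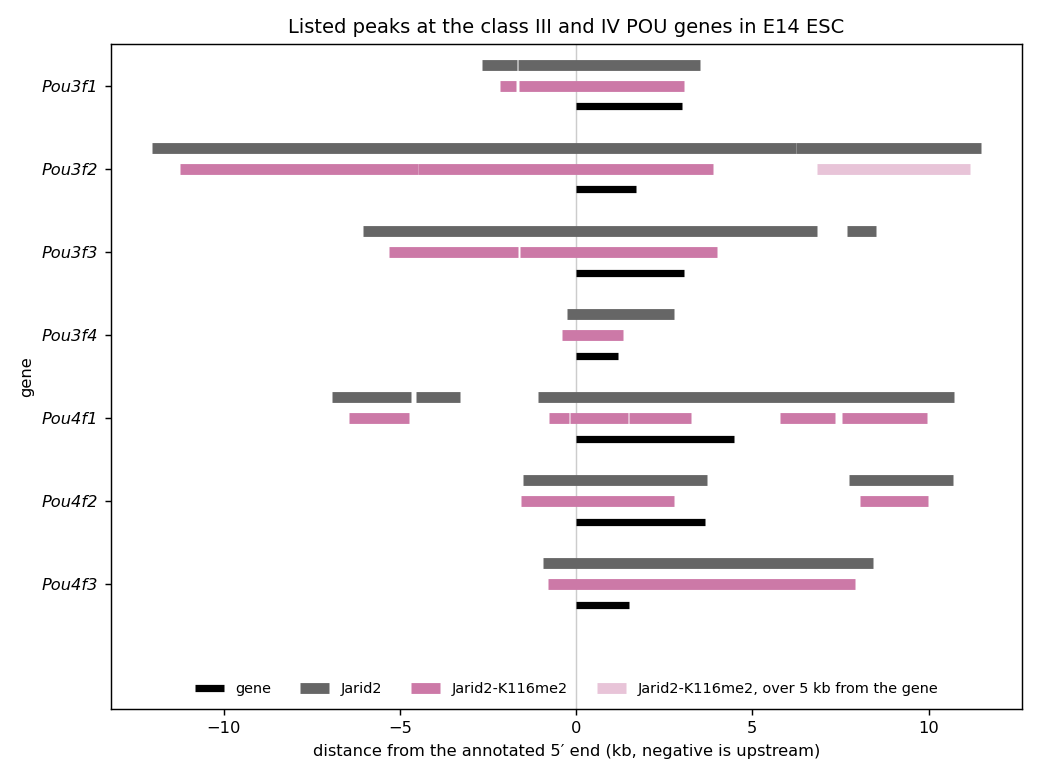
Positions of the listed peaks of Jarid2 and K116me2 at the 7 genes in E14 ESC, as distance in kb from the annotated 5′ end along the gene's strand, with the gene drawn as a black bar. Peaks of both antibodies cover the 5′ end at 7 of 7 genes, the domain of Pou3f2 is the longest and that of Pou3f4 the shortest, and at Pou4f1 a single Jarid2 peak faces 5 K116me2 peaks. The lighter bar at Pou3f2 is the K116me2 peak 5139 bp from the gene.

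The outline of the 2 antibodies differed most at Pou4f1. One Jarid2 peak of 11814 bp, from −1081 to 10732 bp around the 5′ end, was matched by 5 K116me2 peaks of 591 to 2398 bp, with the highest score in the peak over the 5′ end, from −162 to 1472 bp. That peak, 1635 bp long, had 115 CpGs per kb and a GC content of 67.7%, more than 96.4% of the K116me2 peaks. The 2 peaks beyond the 3′ end had only 28.9 and 30.0 CpGs per kb. At Pou3f2 the 2 assigned peaks of each antibody were separated by a gap of only 6 bp, at different places. For Jarid2 the count of 2 peaks thus describes a nearly unbroken stretch. For K116me2 this holds only for the assigned peaks. The nearer of them ended 3879 bp from the 5′ end, and the peak just outside the window lay at 6828 to 11165 bp. Counts of peaks should be read with this in mind: 5 of 7 members had 2 or more peaks of each antibody, against 20.4% of genes with a Jarid2 peak and 21.1% of genes with a K116me2 peak.

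The members' peaks held more CpGs than the median peak and fewer per kb. The 13 Jarid2 peaks had a median of 138 CpGs, against 89.0 over all 4992 peaks, but a median of 34.1 CpGs per kb against 44.9 and a GC content of 50.3% against 56.3%. For the 16 K116me2 peaks the medians were 41.5 CpGs per kb against 51.2 and 51.6% GC against 57.9%. Some peaks over or beside a 5′ end were denser than these medians. The main Jarid2 peak of Pou3f1, 5154 bp long, had 389 CpGs, 75.5 per kb. K116me2 peaks had 67.7 per kb at Pou3f3 and 71.3 and 115 per kb at Pou4f1. The peaks over the 5′ end of Pou3f2 were less dense than the medians, with 27.8 per kb for Jarid2 and 39.0 for K116me2. Those of Pou4f3 had 34.1 for Jarid2, the median itself, and 36.0 for K116me2. The ratio of observed to expected CpG, which corrects for GC content, had a median of 0.531 in the Jarid2 peaks against 0.573 over all, and of 0.632 in the K116me2 peaks against 0.616. These are descriptions of 1 list per antibody.

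The genes of the same family and their partners give a frame. Of 8 other POU genes 7 were in the annotation (Pou5f2 was not), and 2 of these 7 had peaks of both antibodies: Pou2f3, with scores of 250.63 for Jarid2 and 367.98 for K116me2, and Pou6f1, with 2073.04 and 1917.36. Pou5f1 (Oct4), the pluripotency factor active in ESC, had none. Of 17 partner and target genes 16 were in the annotation (Gfi1 was not), and 11 of these had peaks of both antibodies, among them the Notch ligand Dll1, with top scores of 3100 for both antibodies, and Sox10, with 534.81 and 304.82. Sox11 and Egr2 also reached 3100 for both, and Nes had 1439.98 and 1682.11. Myt1l, Sox2, Atoh7, Gap43 and Snap25 had no peak of either antibody.

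The second comparison asked how H3K27me3 at these genes changed from ESC to EBs in the 3 lines. For each sample the lists give the position of broad peaks called by MACS2 and a score for each, on a scale the sources used here do not describe, without reads or fold enrichment. The reads behind a score are not in the files. Library read totals are stated by the study and were not used to scale the scores. The 12 lists held from 1478 to 14125 peaks, and the lowest score listed ran from 28.7 to 43.9 between samples. The first replicate of WT ESC stood apart with the 1478 peaks, covering 2.31 Mb, while the other 11 lists held 3554 peaks or more. In each of the 6 groups the first replicate had fewer peaks than the second, and the authors took the second replicates as the samples of higher quality. The differences between EBs and ESC are also given without the first ESC replicates.

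H3K27me3 peaks were listed in 12 of 12 samples at Pou3f2, Pou3f3, Pou4f1 and Pou4f3, in 11 of 12 at Pou3f1 and Pou4f2, and in 0 of 12 at Pou3f4. The sample without a peak at Pou3f1 and Pou4f2 was the first replicate of WT ESC. A peak in at least 10 of the 12 samples was thus found at 6 of 7 members, against 51.9% of the 4052 genes with a Jarid2 peak.

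Pou3f4, the only X-linked member, is mutated in a form of deafness and is transcribed in the developing otic capsule and hypothalamus. The nearest listed H3K27me3 peak lay 376474 bp or more from the gene in each sample. Absence from a list does not show absence of the mark, since a weaker enrichment than the lowest listed one would not appear. Of the 4052 genes with a Jarid2 peak, 240 (5.92%) had no listed H3K27me3 peak in any sample. Among the 2088 genes whose scores for both antibodies were at least those of Pou3f4, 23 (1.1%) had none, and on chromosome X Pou3f4 was 1 of 35 such genes and the only one without a peak. Of all 77 X-linked genes with a Jarid2 peak, 10 had no listed H3K27me3 peak. In the list of partners, Sox11 was also without a listed H3K27me3 peak in the 12 samples, with Jarid2 and K116me2 scores of 3100.

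Pou4f2 had the clearest pattern across samples. Its highest peak score was 61.3 and 84.7 in the 2 KO ESC samples, 0 and 72.3 in WT ESC, and 58.0 and 61.0 in K116A ESC. In EBs it was 199 and 282 in KO, 163 and 135 in WT, and 171 and 232 in K116A. The 6 EB samples all lay above the 6 ESC samples, which was so for this gene alone of the 6 members with peaks, and for 4.02% of the 8069 genes with a listed peak in at least 2 samples. The covered length changed in the same direction in part: in ESC from 0 to 13.6 kb of the window of the gene and 5 kb on each side were covered, and in EBs from 12.8 to 13.6 kb.

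**Figure D2:**
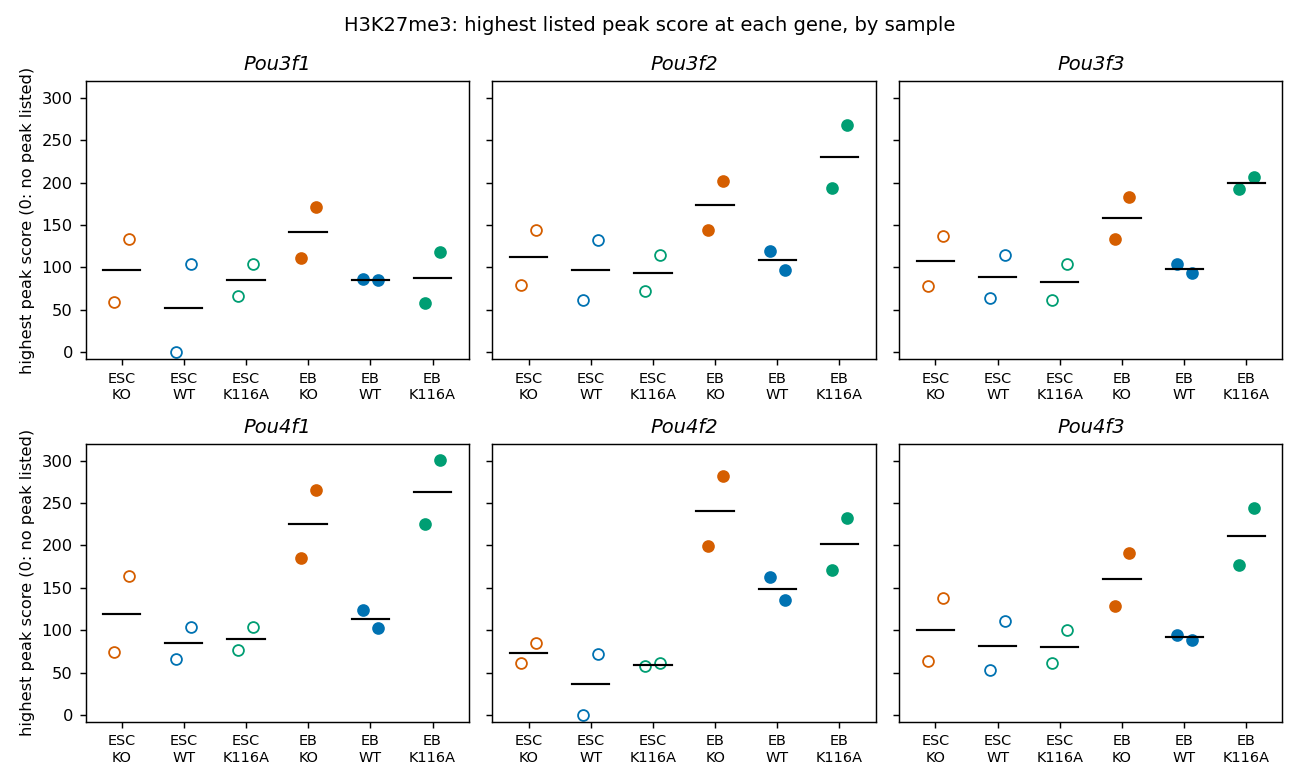
Highest listed H3K27me3 peak score (vertical axis, on the scale of the peak caller, 0 where no peak was listed) at 6 genes in each of 12 samples, with 2 points per line and state and a bar at their mean. Open points are ESC and filled points EBs. At Pou4f2 the 6 EB samples, 135 to 282, lie above the 6 ESC samples, 0 to 84.7, while at the other genes the states overlap.

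To test these changes, the highest score of each gene was divided by the lowest score listed in its sample, taken as log2 and set to 0 where no peak was listed, and fitted with limma over 8069 genes. On this scale Pou4f2 was higher in EBs than in ESC by 1.80 ± 0.34 (SE, mean of the 3 lines, limma adjusted p = 0.0165). It was 1 of 6 members called higher, against 12.2% of the genes tested. The call was not held when any 1 of 4 samples was left out: the adjusted p became 0.0667 and 0.059 without the first or second K116A ESC sample and 0.0964 and 0.0744 without the first or second WT EB sample, with differences of 1.76 to 1.85. On the scale log2(score + 1), which gives the missing peak in WT ESC more weight, the difference was 2.52 with an adjusted p of 0.104. By line, the Pou4f2 difference was 1.93 ± 0.59 in KO (adjusted p = 0.0366), 1.58 ± 0.59 in WT (adjusted p = 1) and 1.90 ± 0.59 in K116A (adjusted p = 0.145). In KO it was again the only member of 6 called, against 18.5% of the genes. The call in KO was lost without the first KO ESC sample (adjusted p = 0.133) or the second KO EB sample (adjusted p = 0.147), and without either of the WT EB or K116A ESC samples, which enter through the shared estimate of the spread (adjusted p = 0.0566 to 0.0651).

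The other 5 members with peaks showed higher means in EBs without passing the test. The difference was 1.18 ± 0.38 at Pou4f1 (limma adjusted p = 0.0552), 0.99 ± 0.39 at Pou4f3 (adjusted p = 0.0844), 0.89 ± 0.37 at Pou3f3 (adjusted p = 0.0939), 0.93 ± 0.39 at Pou3f2 (adjusted p = 0.0983) and 0.51 ± 0.40 at Pou3f1 (adjusted p = 0.321). Without the first ESC replicate of KO, WT or K116A in turn, these differences were 0.23 to 0.36 at Pou3f1 and 0.68 to 1.08 at the other 4 genes. Each of these fits left out a single first replicate, and no fit left out those of all lines together. The differences within each line without its first ESC replicate, given below, were lower at each of the 5 genes than with it. The median over the 6 members was 0.96 and that over all 8069 genes 0.25. Over the 4662 genes with a peak in at least 6 samples it was 0.46. Scores over the lowest listed one were thus higher in EBs across the genome too. That divisor was 31.6 to 43.9 in the ESC lists and 28.7 to 33.7 in the EB lists. A lower divisor raises the value of an equal score, and its part in these differences was not tested. With the score divided by the median score of the sample instead, all of the 5 members above but Pou3f1 were called, with differences of 0.87 to 1.17. Under this scaling 2423 of the 8069 genes were called higher, against 988 in the main fit.

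The 3 lines gave different values at the 5 genes other than Pou4f2, and the test of these differences is given last. In WT, 0 of 6 members and 0% of the 8069 genes were called, with 99 genes at an unadjusted p under 0.05 in limma, and the differences at the other 5 members ran from 0.38 at Pou3f3 to 0.62 at Pou4f1. Without the first WT ESC sample they became negative at 4 genes, −0.30 at Pou3f1, −0.33 at Pou3f2, −0.24 at Pou3f3 and −0.30 at Pou4f3. In K116A, 0 of 6 members were called, against 1.15% of the genes, with differences of 1.47 at Pou3f3, 1.48 at Pou3f2, 1.56 at Pou4f3 and 1.70 at Pou4f1 (adjusted p = 0.268 to 0.331), and of only 0.15 at Pou3f1. Without the first K116A ESC sample these became 1.00 at Pou3f3, 1.04 at Pou3f2, 1.10 at Pou4f3, 1.39 at Pou4f1 and −0.28 at Pou3f1. In KO the differences at the 5 genes ran from 0.80 at Pou3f3 to 1.22 at Pou4f1. Without the first KO ESC sample they were 0.13 at Pou3f1, 0.27 at Pou3f3 and Pou4f3, 0.32 at Pou3f2 and 0.52 at Pou4f1. The change from ESC to EBs was compared between lines by an interaction term, KO against WT and K116A against WT. In both, 0 of 6 members were called, with adjusted p-values of 0.909 to 0.963 and of 1, and 0% of all genes were called, with 1061 and 276 genes at an unadjusted p under 0.05 in limma.

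**Figure D3:**
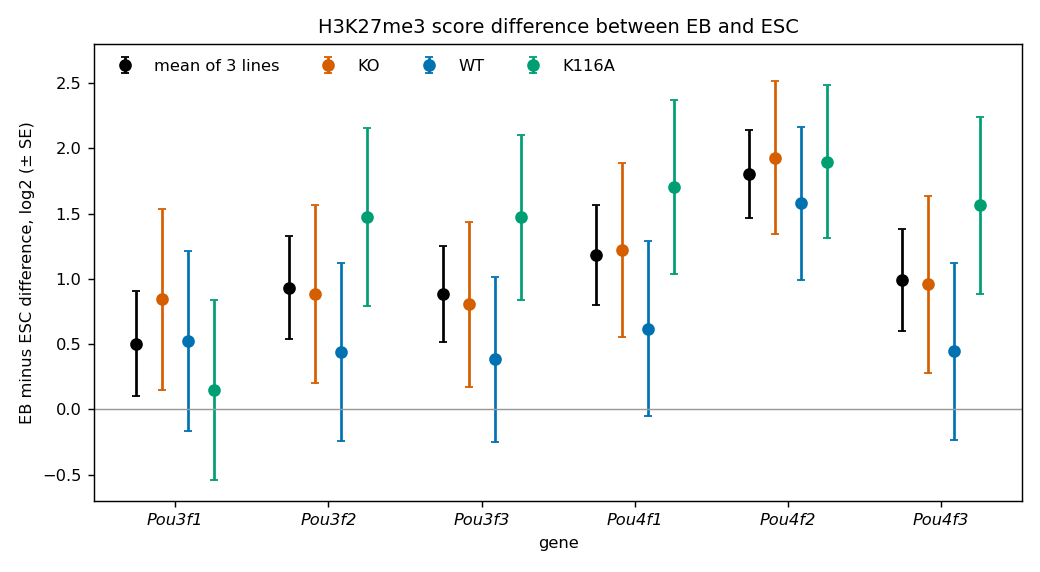
Difference between EBs and ESC in the H3K27me3 measure (log2 of the highest score over the lowest listed score of the sample) at 6 genes, for the mean of the 3 lines and for each line, with bars of ± 1 SE from the limma fit. Pou4f2 has differences of 1.58 to 1.93 in the 3 lines, and Pou3f1 has the lowest difference for the mean, 0.51, and in K116A, 0.15.

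Among EBs the 3 lines could be set side by side directly. The highest scores at Pou4f1 were 124 and 102 in WT, 185 and 266 in KO, and 225 and 301 in K116A. At Pou3f2 they were 120 and 97.3 in WT, 145 and 202 in KO, and 193 and 268 in K116A. At Pou3f3 they were 105 and 93.0 in WT, 133 and 183 in KO, and 192 and 206 in K116A. WT EBs were the lowest at all 3 genes, and the samples of WT and K116A did not overlap at them. WT was lowest at Pou4f3 too, with 94.8 and 89.0 in WT, 129 and 191 in KO, and 177 and 245 in K116A. In ESC the scores of the 3 lines overlapped at Pou4f3: 63.4 and 138 in KO, 52.7 and 111 in WT, and 60.8 and 101 in K116A.

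Both K116A EB samples lay above both WT EB samples at 5 of 6 members, all but Pou3f1, against 38.8% of the genes. Both KO EB samples lay above both WT EB samples at 6 of 6, against 55.6%. In the limma fit the excess of K116A over WT was 1.31 ± 0.67 at Pou4f1 (adjusted p = 0.509), 1.28 ± 0.68 at Pou4f3 (adjusted p = 0.529), 1.18 ± 0.68 at Pou3f2 (adjusted p = 0.559), 1.12 ± 0.63 at Pou3f3 (adjusted p = 0.555), 0.53 ± 0.59 at Pou4f2 and 0.05 ± 0.69 at Pou3f1. None of the 6 was called, against 0.471% of the genes, and the median over all genes was 0.19. Over the 4662 genes with a peak in at least 6 samples the median was 0.51. The excess of KO over WT ran from 0.83 at Pou3f3 to 1.15 at Pou4f1, again with 0 of 6 called, against 13.7% of the genes. The median excess of KO was 0.48 over all genes and 0.61 over the same 4662 genes. The second KO EB list was the longest of the 12, with 14125 peaks, and the WT EB libraries were the shallowest of the EB libraries by the study's read totals. The lowest listed score, the divisor of the measure, was 31.0 and 28.7 in KO EBs, 32.5 and 30.0 in K116A EBs, and 33.7 and 33.4 in WT EBs. The part of list length, depth and divisor in these differences was not tested.

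Pou3f1 followed another course than the other members in K116A EBs. Its highest score was 58.0 and 117.9 there, 86.2 and 84.9 in WT EBs and 112 and 172 in KO EBs. In ESC it was 59.8 and 134 in KO, 0 and 104 in WT, and 66.2 and 104 in K116A. In the K116A EBs this highest score was that of the peak upstream of the 5′ end. The peaks over the gene scored 47.2 and 62.6 there. Those in WT EBs scored 86.2 and 84.9 and those in KO EBs 112 and 172, and some of them also ran upstream. The highest scores in the window overlapped between WT and K116A EBs. The covered length did not: 3.72 and 4.10 kb of the window were covered in the K116A EBs, against 7.56 and 7.74 kb in the WT EBs and 6.78 and 8.08 kb in the KO EBs. The whole window was covered at Pou3f2 and Pou4f1 in all 6 EB samples, so the covered length could not differ there. Pou3f1 was the only one of 6 members with less covered length in both K116A EBs than in both WT EBs, which was so at 7.06% of the genes. The part not covered included most of the gene and its 3′ side: the downstream peak ended 1903 and 1921 bp from the 5′ end in the 2 K116A EB samples, and 3758 to 5095 bp from it in the other 4 EB samples. Of the gene itself 31.5% and 38.3% were covered in the K116A EBs, 100% and 77.3% in the WT EBs and 100% in both KO EBs. The length also fell short of the 5.37 and 7.95 kb of K116A ESC. With 2 samples per group, the limma fit of the log2 covered length gave a difference between K116A and WT EBs of −0.95 (adjusted p = 1), so the shorter domain was a pattern in the samples and not a call.

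**Figure D4:**
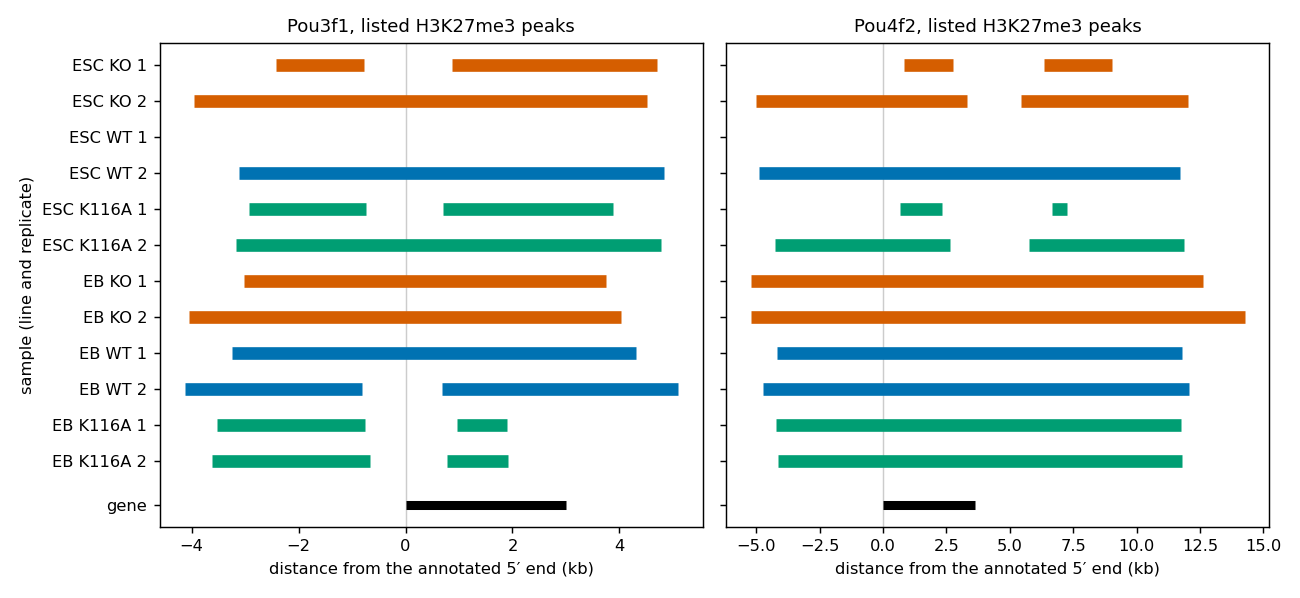
Extent of the listed H3K27me3 peaks at Pou3f1 and Pou4f2 in each of 12 samples, as distance in kb from the annotated 5′ end, with the gene as a black bar. At Pou3f1 the downstream peak of both K116A EB samples ends within 2 kb of the 5′ end, and a gap spans the 5′ end in 5 samples. At Pou4f2 one unbroken peak runs over the gene in the 6 EB samples.

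In 5 of the 11 samples with a peak at Pou3f1 the mark was listed as 2 peaks on either side of the 5′ end, with a gap of 1441 to 1713 bp between them. The 5 were the first KO and K116A ESC samples, the second WT EB sample and both K116A EB samples. Such gaps over the 5′ end also occurred at Pou3f2 in the first ESC sample of each line, with 1280 to 1912 bp, and at Pou4f1 in 2 ESC samples, with 1109 and 3641 bp. At each of these 3 genes the 5′ end itself lay under a peak of both Jarid2 antibodies in E14 ESC. The annotated 5′ end was under a peak in 11 of 12 samples at Pou3f3 and Pou4f3 and in 9 of 12 at Pou4f2. At Pou3f3, however, the RefSeq start, at −1378 bp, lay in such a gap in the first KO and K116A ESC samples. There the listed peaks ended at −2470 and −2383 bp and began again at −1072 and −1099 bp.

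Among the other genes tested, only Sox2 of the 2 lists was called in any contrast. Of 13 partner and target genes tested, 0 were called in the mean of the 3 lines. Their median difference was 0.54, against 0.25 over all 8069 genes and 0.46 over the 4662 genes with a peak in at least 6 samples. Sox2 was called higher in KO EBs both against KO ESC and against WT EBs. It was named after its values were seen, and had a listed peak in only 2 of 12 samples, both of them KO EBs. It thus entered the test only through the group in which it was called, so the call is no support for a change. Its highest score was 46.5, where the lowest scores listed in the KO EBs were 31.0 and 28.7. Of the partners with a Jarid2 peak that are named above, Egr2 differed by 0.68 (adjusted p = 0.171), Sox10 by 0.45 (adjusted p = 0.189), Dll1 by 0.14 (adjusted p = 0.752) and Nes by −0.55 (adjusted p = 0.203), by limma, while Sox11 was not tested. Of 3 other POU genes tested, 0 were called in any of the 8 contrasts.

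The profile of the members over the 12 samples, taken as the mean of the 7 genes on the log2 scale, was followed most closely by Ecel1 (Pearson r = 0.9948, of 8063 genes compared), Hoxb3, Hoxb5, Hoxb6 and Hoxb7 (r = 0.9946 to 0.9947). The Hoxb genes share peaks and are not independent of each other. All genes also share the libraries, whose list lengths differ, so that these values describe likeness within this series. The members themselves correlated with their mean at 0.836 for Pou3f1, 0.922 for Pou4f2 and 0.979 to 0.987 for the other 4 with peaks, so Pou3f1 and Pou4f2 departed most from the common profile.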

How the data were processed

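The series holds 16 samples of mouse ESC and EBs, of which 14 have a peak list and 2 are inputs. According to the methods and the submitters' processing notes, the authors sequenced single reads, mapped them to mm9 with Bowtie2 2.1.0, removed PCR duplicates, called Jarid2 and Jarid2-K116me2 peaks with MACS 1.4.2 and broad H3K27me3 peaks with MACS2 2.0.10, each sample separately against the input. The deposited values are peak scores, not normalized for depth. The number of reads per peak is not in the files, so no counting error could be given for a score. Library read totals are stated in the study's supplement and were not used here.

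Peaks were joined to GENCODE genes (NCBIM37, the same build) within 5 kb and with at least 1 bp of overlap. Per gene and sample, the highest H3K27me3 score was divided by the lowest score listed in the sample and taken as log2, with 0 where no peak was listed. The design had named the fold enrichment with log2(value + 1), which the lists do not hold. This measure was chosen after the files had been read and before any fit, and log2(score + 1) was kept as an alternative. Genes with a peak in at least 2 of 12 samples were fitted with limma 3.58.1 (R 4.3.3, group means, trend), with Benjamini-Hochberg adjustment over all genes tested and a threshold of 0.05. The fit was tested on simulated data. The intervals and sequences were read with Python 3.11.15 and pandas 2.3.3. No test was made for the Jarid2 lists, with 1 sample each. The members and the 2 gene lists were chosen with earlier results of these data known. All 7 members are named, the lists are given as counts with values for up to 6 genes in list order among those with a Jarid2 peak, and the 5 genes most like the members by their Pearson correlation. The values of 1 listed gene are not reported here. The alternatives were other windows, score minimums, pseudocounts, scalings, filters, a replicate block and leaving out each sample.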

Additional observations from a re-analysis of the deposited data

How the results depend on the processing

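The counts of 7 members with a peak of each antibody held under 3 alternatives each. Without the 5 kb extension the peaks at the members fell to 7 for Jarid2, all 7 overlapping a Jarid2-K116me2 peak, and 8 for Jarid2-K116me2, and with an overlap of at least 50% of both peaks 7 Jarid2 peaks were common. For the mean of the 3 lines, the number of members called higher in EBs, 1 in the report, was 5 with the score divided by the sample's median, 2 with a peak required in at least 6 samples, 0 with the covered length and 0 to 5 when 1 sample was left out. The first 3 of these settings called 2423 of 8069, 1024 of 4662 and 2006 of 8069 genes higher, against 988 of 8069 in the report. With a pseudocount of 0.1 or log2(score + 1) the member called was Pou4f1 in place of Pou4f2, with 1289 and 1321 of 8069 genes called higher. In KO it was 0 with the pseudocount of 0.1, log2(score + 1), the covered length, at least 6 samples, no filter or 2 kb around the 5′ end, and 0 to 1 when 1 sample was left out. These settings in KO, in the order given, called 1361, 1365 and 1610 of 8069, 354 of 4662, 1199 of 22350 and 687 of 5369 genes higher. The report had 1496 of 8069 there. In K116A the number of members called was 1 with peaks of a score of at least 50, where 105 of 5220 genes were called higher. In the other 5 contrasts 0 members were called under each setting.

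The replicate numbers were not taken as a pairing, since the labels state none and not every pair of groups correlated: deviations from the group means correlated at 0.71 to 0.75 among the 3 ESC groups and at −0.13 to 0.36 over the other 12 of 15 pairs of groups. The first replicate still had fewer peaks in each of the 6 groups. With a replicate block, 5 members were called in the mean of the 3 lines and 5 in K116A, in both all but Pou3f1, and 2 in KO (Pou4f1 and Pou4f2), and the genes called rose from 1030 to 3756 in the mean, 1513 to 2852 in KO, 97 to 1302 in K116A, 1113 to 2536 in EBs of KO against WT and 38 to 523 of K116A against WT.

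Counts over all genes depended strongly on the settings. Over the alternatives and omissions they ran from 23 (without the first WT EB sample) to 3756 in the mean, 370 to 2852 in KO, 0 to 180 in WT, 0 to 1302 in K116A, 0 to 1586 and 0 to 228 in the interactions of KO and K116A, 0 to 2536 in EBs of KO against WT, and 0 to 523 of K116A against WT. In 756 refitted member values, 693 kept direction and side of the threshold, 19 were reversed, 19 lost a call and 25 gained one. Many of the 756 could not change direction. A difference stays the same when the sample left out is not part of its contrast, when only the gene filter changes, and with the replicate block. Pou3f1 in K116A, 0.15, became −0.0061 with a pseudocount of 0.1, −0.0055 with log2(score + 1), −0.0062 with scores of at least 50, −0.73 with covered length, and −0.42 to 0.72 when 1 sample was left out. Its difference between K116A and WT EBs, 0.05, became −0.0493, −0.0478 and −0.0495 under the first 3 of these, −0.11 with the sample's median, −0.95 with covered length and −0.52 to 0.62 when 1 sample was left out. With covered length the EB difference of KO and WT was −0.0471 at Pou3f1 and −0.0308 at Pou4f3, and that of K116A and WT −0.0289 at Pou4f2. When 1 sample was left out, the WT difference between EBs and ESC ran from −0.30 to 1.35 at Pou3f1, −0.33 to 1.21 at Pou3f2, −0.24 to 1.00 at Pou3f3 and −0.30 to 1.19 at Pou4f3. The cause of these shifts was not tested. The cut on −log10 q was not run because the lists hold no q-values, and scores of at least 50 were used instead, chosen after seeing the data, as was log2(score + 1).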
